A study of Homo sapiens with 4 samples.

Results

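DEAD box and DEAH box proteins are the largest families of RNA helicases, enzymes that use ATP to unwind RNA duplexes or to strip proteins from RNA. Their gene symbols begin with DDX and DHX, after the amino acid letters of a conserved motif in the helicase core. DEAD box enzymes typically open short duplexes locally, whereas DEAH box enzymes move along a strand and drive the remodelling steps of the spliceosome and of ribosome assembly. The genes were taken as every array row with exactly 1 gene symbol made of DDX or DHX and a number, without numbered pseudogenes. This gave 52 rows for 50 genes, 34 DDX and 16 DHX, out of 18417 genes with such a row. A further 8 rows that carry a DDX or DHX symbol together with other symbols were not used.

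Expression was measured in HepG2, an established line of liver tumour cells, on 4 Affymetrix arrays. The cells were transfected with a lipid reagent, in 2 cultures with an inhibitor of the microRNA miR-191 (anti-miR-191) and in 2 cultures with a negative control anti-miR. The duplicates come from independent studies, and arrays with the same number in their titles were taken as 1 experiment, with 1 array per group. The labels give no dose, no time after transfection and no untransfected culture. A single cell line was used, so the results rest on HepG2 alone. The values are RMA intensities on the log2 scale, and array medians lay between 4.37 and 4.43. Of 13 hepatocyte marker genes with a row, all 13 were above the limit set on dim rows, with control levels from 4.82 to 12.96. Of 15 markers of blood, endothelial, stromal, muscle, skin and glial cells, 13 were also above that limit, so passing it does not separate the 2 lists. The median control level was 3.76 for these 15 and 10.89 for the hepatocyte markers. PTPRC read 2.62, whereas CD68 (8.39), COL1A1 (6.02), DES (5.88) and KRT14 (5.39) read above the lowest hepatocyte marker. Between the groups the hepatocyte list had a median change of -0.27, and every change was negative, from -1.04 to -0.06. The median of this list was -0.03 in experiment 1 and -0.53 in experiment 2, with mean levels of 4.61 to 12.69 after anti-miR-191. By the test 1 of 13 genes, TTR (0.486-fold), was lower, against 3.77% of all genes. At an unadjusted p under 0.05 in limma, 3 of the 13 were lower, against 8.98% of all genes. The list of other cell types had a median change of -0.01 with 0 of 13 tested genes past the test. Their part in the results on helicases was not tested.

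An anti-miR is an antisense oligonucleotide that binds a mature microRNA. The labels do not say which arm of the miR-191 hairpin was targeted, so both mature sequences (RefSeq, GRCh38.p14) are shown, as the agent that separates the groups. Capitals mark the seed, bases 2 to 8.
hsa-miR-191-5p: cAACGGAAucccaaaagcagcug
hsa-miR-191-3p: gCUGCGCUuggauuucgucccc
They lie on the minus strand at chr3:49020672-49020694 and chr3:49020631-49020652. The arrays do not measure these mature forms.

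Of the 50 genes, 43 passed the filter on dim rows, which removed rows with a mean level below 3.41 over the 4 arrays. They comprised 27 DDX and all 16 DHX genes. The 7 dim genes were DDX4, DDX25, DDX43, DDX53, DDX59, DDX60 and DDX60L, with mean levels from 2.50 to 3.41 and differences between the groups from -0.10 to 0.09. DDX4 (VASA) and DDX43 are known from the germ line, and DDX60 is induced by interferon.

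After anti-miR-191, 6 helicase genes rose, all of them DDX genes, and 0 fell. They were DDX5, DDX19B, DDX42, DDX28, DDX55 and DDX19A, with rises between 1.64-fold and 1.83-fold. The words rose and fell stand for an adjusted p under 0.05 in limma's fit with the experiment as a block, and a change is the treated level minus the control level in log2 units. In RNA from whole cultures, a change in every cell and a change in the mix of cells cannot be told apart. The 6 genes are 14% of the 43 tested, against 10.1% of all 14147 genes called higher, and 3.77% of all genes were called lower. The share among helicases is therefore close to that of the whole array. At an unadjusted p under 0.05 in limma, 11 DDX and 9 DHX genes were higher, which is 46.5% of the 43 against 19.1% of all genes, and 0 of either family was lower, against 8.98% of all genes. In limma's fit without the block, 1 helicase gene, DDX19B, was called higher (adjusted p = 0.048) against 3.20% of all genes, and 0 were called lower against 0.714%. After quantile normalization 3 of the 43 were called higher, DDX5, DDX19A and DDX19B, and 6.34% of all genes were.

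**Figure D1:**
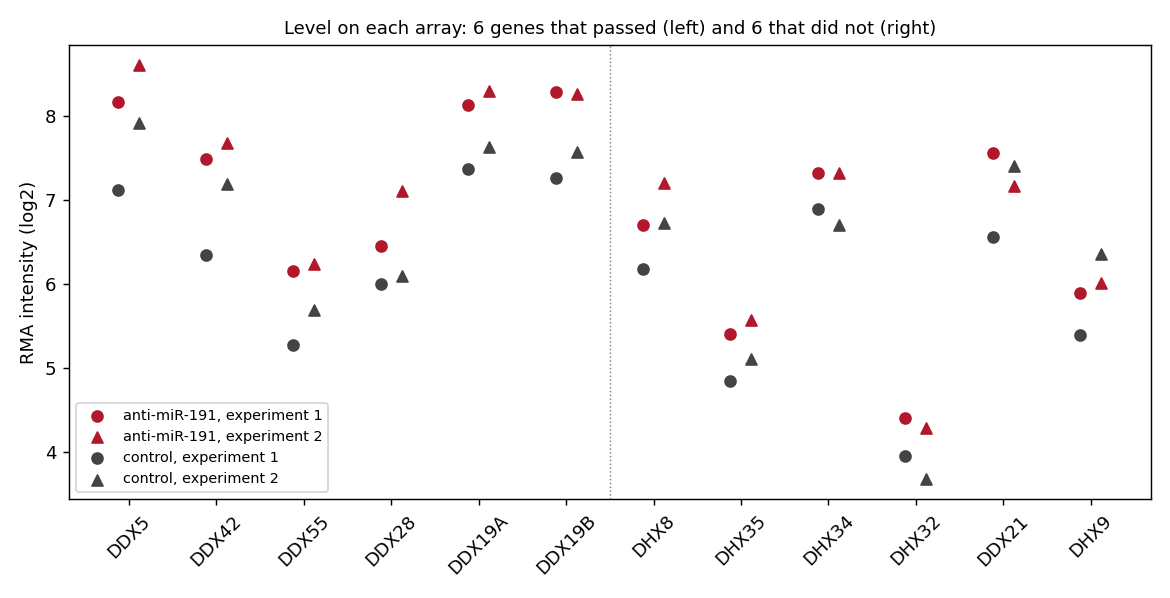
RMA intensity on the log2 scale (y axis) on each of the 4 arrays for 12 helicase genes (x axis), with red for anti-miR-191, grey for control, circles for experiment 1 and triangles for experiment 2. In the 6 genes left of the dotted line, which passed, both red points lie above both grey points, whereas red and grey points overlap in DHX8, DDX21 and DHX9 on the right.

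Of 12 tested helicases of pre-mRNA splicing, 2 rose, DDX5 and DDX42, against 10.1% of all genes called higher. DDX5, also known as p68, takes part in splicing, in transcription and in the Drosha complex that cuts primary microRNAs. It read 8.17 and 8.61 after anti-miR-191 in experiments 1 and 2, and 7.12 and 7.92 in the controls. The groups did not overlap, although the second control lay close to the first treated array. The change was 0.87 ± 0.16 (SE), or 1.83-fold, with limma's adjusted p = 0.013, and 0.161 without the block. DDX42, which associates with the SF3b part of the U2 particle, read 7.49 and 7.68 after anti-miR-191 and 6.35 and 7.19 in the controls. Its low first control gave changes of 1.14 and 0.49 in experiments 1 and 2, a mean of 0.81 ± 0.19 (limma's adjusted p = 0.027, and 0.165 without the block).

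The other 10 splicing helicases tested did not pass, with changes from 0.03 to 0.51. DHX8, which releases the finished mRNA from the spliceosome, read 6.71 and 7.21 after anti-miR-191 and 6.18 and 6.73 in the controls. Its changes of 0.54 and 0.48 were close to each other, although both arrays of experiment 2 were higher than those of experiment 1 and the first treated array lay just below the second control. The mean change of 0.51 ± 0.14 had limma's adjusted p = 0.056. DHX35, a component of the catalytic spliceosome, read 5.40 and 5.57 against 4.85 and 5.11, a change of 0.50 ± 0.14 (limma's adjusted p = 0.059). DDX17, the close paralog of DDX5, read 7.77 and 7.80 against 7.19 and 7.60, a change of 0.39 ± 0.16 (limma's adjusted p = 0.156) that was smaller than that of DDX5 in both experiments. DHX15, which dismantles spent spliceosomes, read 6.77 and 6.75 against 6.17 and 6.78, so that only its first control lay clearly below the treated arrays. DHX38, which acts before the second catalytic step, read 6.70 and 6.69 against 6.20 and 6.36, with no overlap of the groups and limma's adjusted p = 0.108. DDX41, named for the bright signal of its row, read 9.13 and 9.05 against 9.28 and 8.84, with changes of -0.15 and 0.21. DDX39A, an export and splicing factor whose row is also bright, read 8.40 and 8.77 against 8.17 and 8.67. Its changes of 0.24 and 0.10 were smaller than the gap of 0.51 between its 2 controls.

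Helicases of ribosome assembly also included 2 genes that rose, of 16 tested, against 10.1% of all genes called higher. DDX28 acts in mitochondria, in the assembly of the large mitochondrial ribosomal subunit. It read 6.46 and 7.11 after anti-miR-191 and 6.0 and 6.10 in the controls, so the controls were close to each other and the treated arrays were not. The changes were 0.47 and 1.02, a mean of 0.74 ± 0.17 (limma's adjusted p = 0.030, and 0.136 without the block). DDX55, a nucleolar helicase of the cytosolic large subunit, read 6.16 and 6.24 against 5.27 and 5.69, and the groups did not overlap. Its change of 0.72 ± 0.16, or 1.65-fold, had limma's adjusted p = 0.023 and 0.087 without the block. After quantile normalization neither gene passed (adjusted p = 0.083 and 0.054), nor did DDX42 (adjusted p = 0.075); over the settings that keep all 4 arrays the adjusted p ran from 0.026 to 0.136 for DDX28, from 0.019 to 0.087 for DDX55 and from 0.024 to 0.165 for DDX42.

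Of the 14 other genes of ribosome assembly, changes ran from -0.15 to 0.58. DDX56, a nucleolar helicase, read 9.39 and 9.35 after anti-miR-191 and 9.04 and 8.54 in the controls, with changes of 0.35 and 0.81 (limma's adjusted p = 0.058). DDX31 had a like pattern, reading 5.36 and 5.76 against 5.02 and 4.98, with changes of 0.35 and 0.78 (limma's adjusted p = 0.062). In both genes, as in DDX28, the larger change was in experiment 2. DHX30, which takes part in mitochondrial ribosome assembly, read 8.40 and 8.50 against 8.07 and 7.98, a change of 0.43 ± 0.15 (limma's adjusted p = 0.104). DHX33 read 6.94 and 7.11 against 6.31 and 6.69, a change of 0.53 ± 0.15 (limma's adjusted p = 0.055), and DHX37, an enzyme of small subunit assembly, read 7.68 and 7.75 against 7.41 and 7.24. In both genes the groups did not overlap. DDX54, which also acts as a transcriptional corepressor, was the 1 helicase of the 43 with both treated arrays below both controls. It read 8.57 and 8.49 against 8.67 and 8.70, a difference of -0.15 ± 0.15 (limma's adjusted p = 0.558). DDX10 was among the dimmest rows tested and read 3.96 and 3.65 against 3.48 and 3.50.

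Of all genes 10.1% were called higher, and of 10 tested helicases of mRNA export, translation and decay the paralogs DDX19B and DDX19A rose. Their proteins release mRNA from export factors at the cytoplasmic face of the nuclear pore. DDX19B read 8.29 and 8.27 after anti-miR-191 and 7.27 and 7.58 in the controls, a change of 0.85 ± 0.16 (1.80-fold, limma's adjusted p = 0.013). DDX19A read 8.14 and 8.30 against 7.37 and 7.64, a change of 0.71 ± 0.15 (limma's adjusted p = 0.019, and 0.070 without the block). In both genes every treated array lay above every control array. They are neighbours on chromosome 16 and closely alike in sequence, so their rows may share signal and the pair may not count as 2 independent genes. A second DDX19A row, dimmer and not used, read 7.58 and 7.83 against 7.15 and 7.32, with changes of 0.44 and 0.50.

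The other 8 genes of this group had changes from 0.08 to 0.52. DHX34, which acts in nonsense-mediated decay, read 7.32 and 7.33 after anti-miR-191 and 6.90 and 6.70 in the controls, a change of 0.52 ± 0.15 (limma's adjusted p = 0.058). DDX3X, a helicase of translation initiation, read 7.35 and 7.08 against 6.50 and 7.14. Its first control alone stood apart, and its changes were 0.85 and -0.06 (limma's adjusted p = 0.294). DHX9, or RNA helicase A, was the only tested member whose changes were at least 0.3 in both experiments and of opposite sign. It read 5.90 and 6.01 after anti-miR-191 and 5.39 and 6.36 in the controls, so that the treated arrays lay between the controls. DHX36, which unwinds G-quadruplexes, had the lowest mean level of the 43 helicases tested, 3.52, and changes of 0.44 and 0.08. Its control mean of 3.39 lay below the limit of 3.41 on dim rows, so it passed only through the treated arrays (mean 3.65). It is included in the counts given below of genes higher in both experiments and of genes whose groups did not overlap.

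The remaining 5 tested genes did not pass. DHX58, or LGP2, a regulator of the antiviral sensors RIG-I and MDA5, read 4.83 and 4.80 against 4.68 and 4.46, a change of 0.24 ± 0.15 (limma's adjusted p = 0.338). DDX20, a subunit of the SMN complex that assembles spliceosomal particles, read 4.83 and 4.86 against 4.30 and 4.4 (change 0.50 ± 0.14, limma's adjusted p = 0.060). DHX32 read 4.4 and 4.29 against 3.95 and 3.68 (change 0.52 ± 0.15, limma's adjusted p = 0.054). In DDX20 and DHX32 the groups did not overlap. DHX40 read 3.74 and 3.89 against 3.75 and 3.97, and DHX57 had a change of 0.11 ± 0.14.

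**Figure D2:**
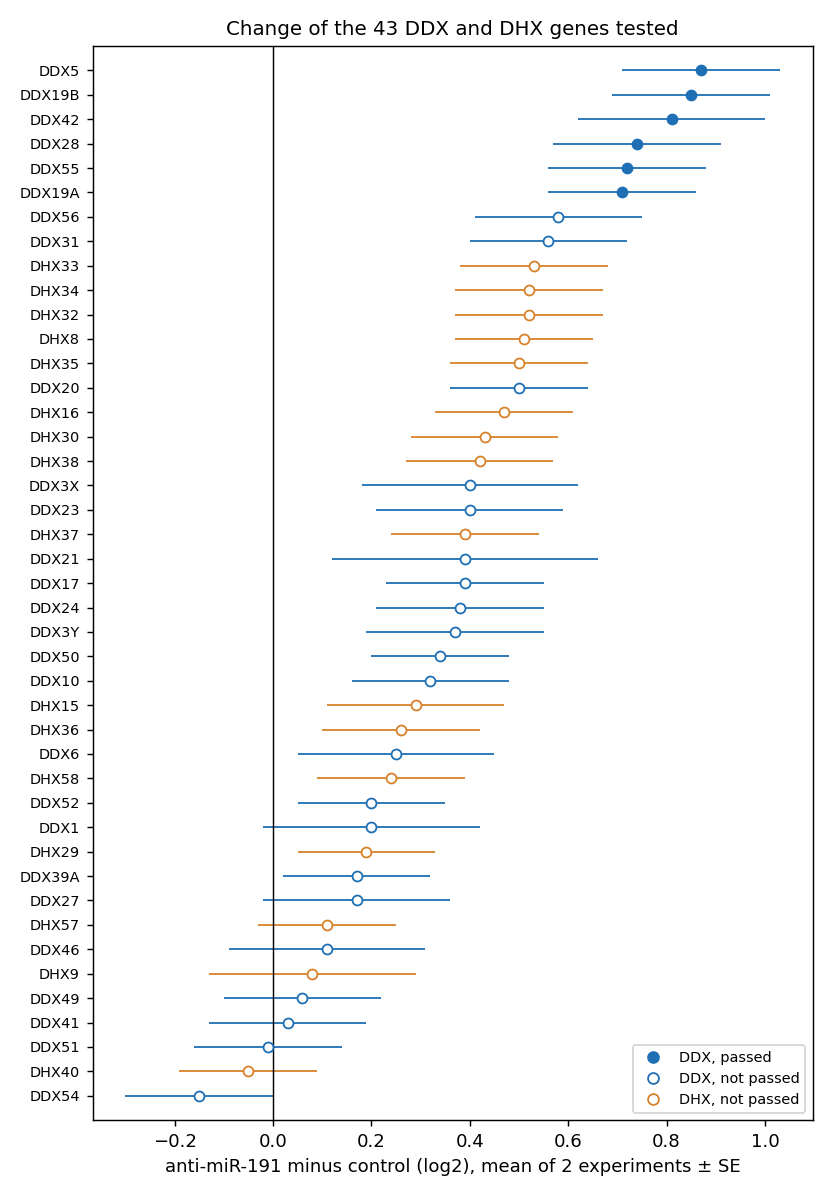
Change of each of the 43 tested helicase genes (y axis) as the log2 difference of treated and control arrays (x axis), the mean of 2 experiments with SE bars from the limma fit with the experiment as a block. Filled points passed the adjusted threshold: these are the 6 DDX genes at the top, from 0.71 to 0.87, while DHX points reach 0.53 and 3 genes lie below 0.

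Most helicases that did not pass were still higher on average. Of the 43 genes tested, 40 had a mean change above 0, against 51.4% of all genes tested. The change was positive in both experiments for 30 of the 43, against 36.5% of all genes, and negative in both for DDX54 and DHX40, against 33.0%. DDX5, DDX19A and DDX19B, 3 of the 43, were 1.5-fold higher or more in each experiment, against 6.45% of all genes. In 27 of the 43, both treated arrays lay above both control arrays, against 29.4% of all genes; the opposite held for 1 of the 43 and 23.8% of all genes. The median change was 0.38 for DDX genes and 0.40 for DHX genes, against 0.01 over all genes tested. With the 7 dim genes included the DDX median was 0.28, and under quantile normalization the medians were 0.26 for DDX and 0.31 for DHX, against -0.02 over all genes. No test was made of these medians, since the genes of a family are not replicates.

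DDX and DHX genes had like medians and differed in their spread. DDX changes ran from -0.15 to 0.87 with an interquartile range of 0.39, and DHX changes from -0.05 to 0.53 with an interquartile range of 0.27. The count of 6 risen DDX genes against 0 DHX genes depends on the threshold. At an adjusted p under 0.10, limma called 9 of 27 DDX genes (33.3%) and 6 of 16 DHX genes (37.5%) higher, against 14.3% of all genes, and called 0 lower, against 5.99%. The 6 DHX genes, DHX8, DHX16, DHX32, DHX33, DHX34 and DHX35, had changes from 0.47 to 0.53 and adjusted p from 0.054 to 0.073. With SEs this alike, a band of adjusted p allows only a narrow range of changes. The 3 DDX genes between 0.05 and 0.10, DDX20, DDX31 and DDX56, had changes from 0.50 to 0.58. With no filter on dim rows, 3 of the 6 DHX genes, DHX8, DHX32 and DHX33, passed at 0.05, when 8.29% of all genes were called higher. DHX16, the spliceosomal ATPase that acts before the first catalytic step, had 2 rows, with changes of 0.47 and 0.44. No test of DDX against DHX was made.

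The 2 experiments differed more for DDX than for DHX genes. The median DDX change was 0.53 in experiment 1 and 0.15 in experiment 2. For DHX genes the medians were 0.44 and 0.39, and for all genes tested 0.02 and 0.01. The median absolute gap between a gene's 2 changes was 0.43 for DDX, 0.18 for DHX and 0.22 for all genes. With a limit of 0.25, chosen after the values were seen, 6 of 27 DDX genes (22.2%), 13 of 16 DHX genes (81.2%) and 55.9% of all genes had a gap below it. With 1 array per group in each experiment these gaps have no test.

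Across genes, the changes of experiments 1 and 2 went together less among the helicases than over the array as a whole. Pearson's r was 0.14 over 27 DDX genes (Spearman's rho 0.05) and 0.19 over 16 DHX genes (Spearman's rho 0.06), against 0.68 (0.58) over all genes tested. The points of a correlation share the same 4 arrays, genes are not independent, and the helicases span a smaller range of changes than all genes, so these are descriptions.

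**Figure D3:**
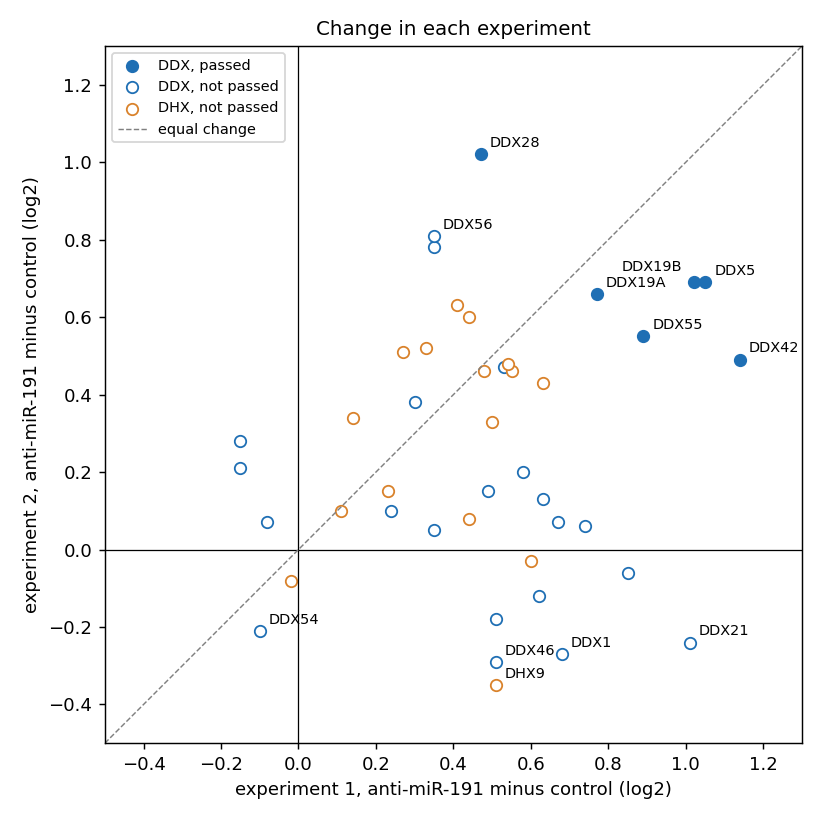
Log2 difference of treated and control array in experiment 1 (x axis) and experiment 2 (y axis) for the 43 tested helicase genes, with DDX in blue, DHX in orange and filled points for genes that passed. Most DHX points lie near the dashed line of equal change, while a group of mainly DDX genes to the lower right, among them DDX21 and DDX1, has a positive change in experiment 1 and a negative one in experiment 2.

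In 11 of the 43 genes (25.6%) the change had opposite signs in the 2 experiments, against 30.4% of all genes tested. The share was 33.3% among DDX and 12.5% among DHX genes. In 8 of the 11 the change was positive in experiment 1 (0.51 to 1.01) and negative in experiment 2 (-0.35 to -0.03). These were DDX1, DDX3X, DDX6, DDX21, DDX27, DDX46, DHX9 and DHX15, described as a group after their values were seen. DDX21, a nucleolar helicase of rRNA transcription and processing, read 7.57 and 7.17 after anti-miR-191 and 6.56 and 7.41 in the controls, with changes of 1.01 and -0.24. DDX6, which represses translation and promotes decapping, read 6.42 and 6.32 against 5.80 and 6.43. DDX1, a subunit of the tRNA ligase complex, read 7.21 and 6.56 against 6.53 and 6.83. In all 8 genes the control of experiment 1 was the lowest of the 4 arrays. In the other 3, DDX41, DDX49 and DDX51, it was the highest. These positions follow in part from the grouping by sign. The signs leave only this control or the treated array of experiment 2 as the lowest or highest.

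The gap between the experiments lay mainly in the controls. Among DDX genes the control of experiment 2 was above that of experiment 1 in 22 of 27 (81.5%), with a median difference of 0.30, whereas the anti-miR-191 arrays differed by a median of -0.02. Among DHX genes the control of experiment 2 was higher in 9 of 16 (56.2%), with a median difference of 0.09. Over all genes tested the share was 48.8%. The control of experiment 1 was the lowest of the 4 arrays for 21 of 27 DDX genes (77.8%), 8 of 16 DHX genes (50%) and 29.3% of all genes. Without that control, in the fit without the block, the median change was 0.23 for DDX and 0.34 for DHX genes, and 21 of 27 and 13 of 16 were above 0. Without the control of experiment 2 the medians were 0.52 and 0.40.

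**Figure D4:**
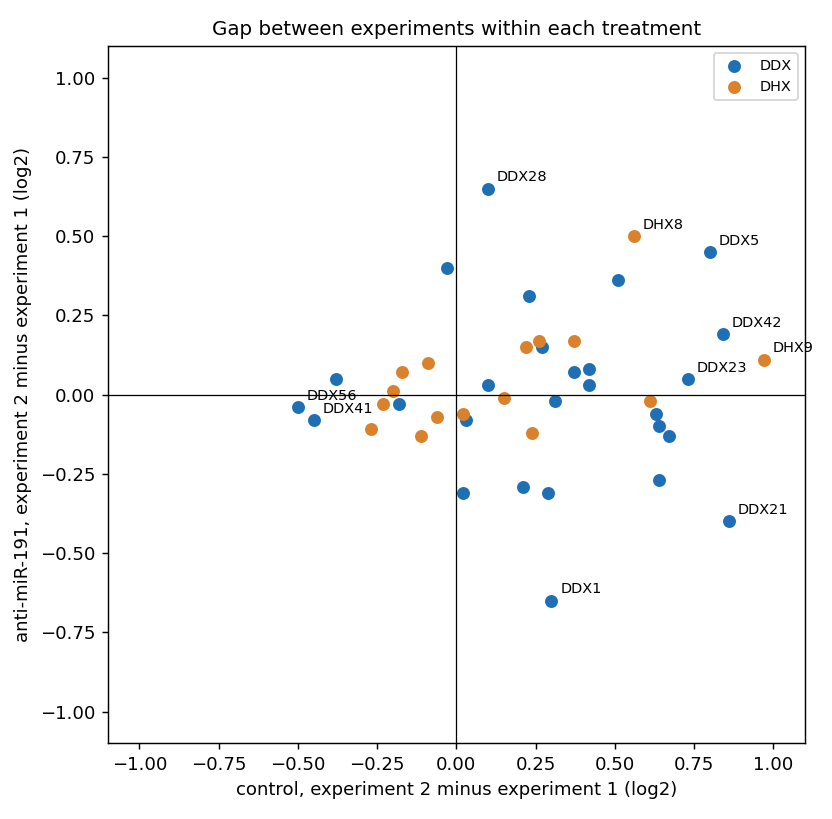
Level in experiment 2 minus experiment 1 on the log2 scale for the control arrays (x axis) and the anti-miR-191 arrays (y axis), 1 point for each of the 43 tested helicase genes, with DDX in blue and DHX in orange. The points spread to the right along the x axis, up to 0.97 for DHX9, with 22 of 27 DDX genes right of 0, while on the y axis they are about evenly split around 0.

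No helicase passed the test of experiment 2 against experiment 1. With limma's block fit 0 of 43 were called, against 0.318% of all genes, and 5 had an unadjusted p under 0.05, against 12.3% of all genes. The 5 were DDX5, DDX39A, DDX42, DHX8 and DHX9, all higher in experiment 2. The differences were 0.63 ± 0.16 for DDX5 (limma's adjusted p = 0.181) and 0.53 ± 0.14 for DHX8 (limma's adjusted p = 0.206).

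The promoters of the risen genes were read because these genes passed the same threshold. Whether they are regulated together was not tested. RefSeq (GRCh38.p14) gives windows from 250 bases before to 50 bases after the start site for 39 of the 43 tested genes. The motif GACGTC, the palindromic centre of the cAMP response element TGACGTCA bound by the CREB and ATF factors, was chosen after the sequences were seen. It reads the same on both strands. It was found in a window of 4 of the 6 risen genes, in 3 of the 33 other tested helicases with a window (DDX10, DDX51 and DHX36), and in 8.67% of the 11054 tested genes with a window. Those 3 of 33 are 9.09%, close to the share of all tested genes. Counted by window and not by gene, the share was 5.03% of all 35116 windows. DDX5 and DDX19B have 3 windows each, so more bases were searched for them than for a gene with 1 window. In each of these genes only 1 of the 3 windows holds the match. The 100 bases before the start site are shown for these 4 genes because they place the match, in capitals, beside the start.
DDX5: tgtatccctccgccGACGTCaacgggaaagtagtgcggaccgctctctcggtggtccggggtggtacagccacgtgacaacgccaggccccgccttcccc
DDX19A: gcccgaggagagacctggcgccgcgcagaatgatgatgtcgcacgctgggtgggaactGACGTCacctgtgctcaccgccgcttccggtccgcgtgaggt
DDX19B: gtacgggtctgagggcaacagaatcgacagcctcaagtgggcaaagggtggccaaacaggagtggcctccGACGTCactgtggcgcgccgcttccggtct
DDX28: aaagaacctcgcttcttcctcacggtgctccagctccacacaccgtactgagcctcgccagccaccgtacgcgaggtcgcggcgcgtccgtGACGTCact
The stretches are chr17:64506639-64506738 (minus strand), chr16:70346803-70346902 (plus), chr16:70299086-70299185 (plus) and chr16:68023233-68023332 (minus). The match begins 86, 42, 30 and 9 bases before the start site of its window, in the same order.

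The full element TGACGTCA, which contains GACGTC, was found in DDX19A and DDX28 of the 6 risen genes, in the same 3 helicases that did not rise, in 3.51% of tested genes with a window and in 5.12% of the risen ones. By window, its share was 1.85%. Of those 3, DDX51 had a change of -0.01 with 3 matches of the shorter motif. Over all tested genes with a window, GACGTC was present in 11.2% of 1191 risen, 9.38% of 416 fallen and 8.32% of 9447 other genes. These shares are descriptions of the sequence, and binding at these sites was not measured.

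**Figure D5:**
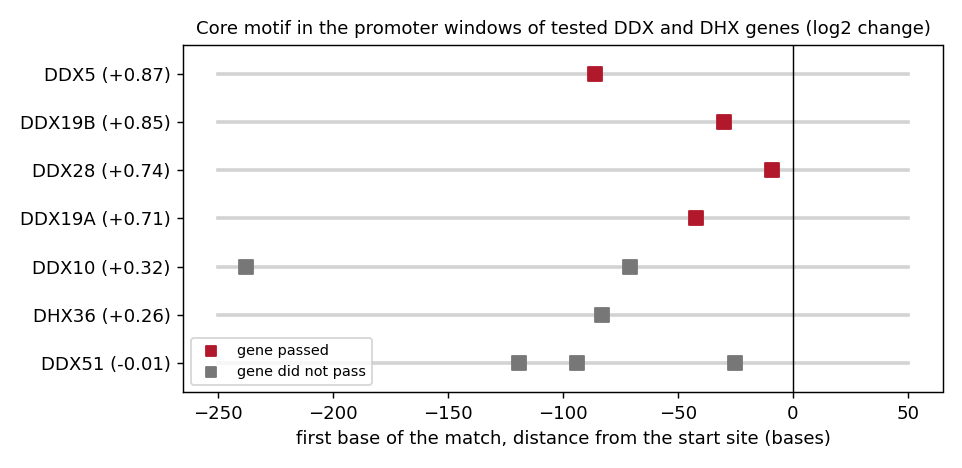
Position of the GACGTC motif (squares, first base) in bases from the start site (x axis, the window runs from 250 before to 50 after) in the 7 tested helicase genes that hold it (y axis, with the log2 change in brackets). Red squares mark the 4 genes that rose and grey squares the 3 that did not, and DDX51, with 3 matches, had a change of -0.01.

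Other RNA helicases and partners of these enzymes gave a wider range of changes. Of 16 tested RNA helicases outside the DDX and DHX symbols, 7 rose and 0 fell (8 higher and 0 lower at an unadjusted p under 0.05 in limma), with a median change of 0.31. Of all genes, 10.1% were called higher and 3.77% lower (19.1% and 8.98% at the unadjusted limit). Without the block 4 of the 7 passed. EIF4A2 and EIF4A3 are DEAD box proteins under other names. EIF4A2, which unwinds mRNA for translation initiation, rose 2.82-fold (1.5 ± 0.15), and EIF4A3, the core of the exon junction complex, rose 2.01-fold (1.01 ± 0.16; limma's adjusted p = 0.055 without the block). ZNFX1 rose 2.28-fold and IGHMBP2 rose 1.97-fold. Each of these 4 changes was larger than that of any DDX or DHX gene.

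Of 19 tested G-patch genes, whose products include activators of DHX helicases, 1 rose, the splicing regulator RBM5 (2.98-fold, 1.58 ± 0.15). The median of the list was 0.36. Of 11 partners of DDX6 in decapping, 3 rose, namely EDC3 (2.07-fold), DCP1A (1.54-fold) and LSM14A (1.49-fold), and 0 fell. EDC3 also passed without the block, whereas DCP1A (limma's adjusted p = 0.136) and LSM14A (0.138) did not. Of 13 genes of the exon junction and of mRNA export, 1 rose, THOC5 (1.49-fold), which did not pass without the block (limma's adjusted p = 0.160). Of 6 tested genes of the RIG-I pathway, 1 rose, the ubiquitin ligase TRIM25 (2.12-fold). The receptor gene RIGI itself, formerly DDX58 and outside the symbol rule, had a dim row, with levels of 2.95 after anti-miR-191 and 3.06 in controls. Over these 4 lists of partners limma called 0 genes lower, and of all genes it called 10.1% higher and 3.77% lower. At an unadjusted p under 0.05 it had 11 higher and 0 lower among the G-patch genes, and 4 higher and 0 lower among the decapping partners. The exon junction and RIG-I lists each had 3 higher and 1 lower. The shares of all genes at that limit were 19.1% higher and 8.98% lower.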

How the data were processed

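The deposited table holds log2 intensity values for 33297 rows on 4 arrays. Per the submitters' processing notes the authors used RMA and Affymetrix Expression Console. Its version is not given in the sources used here, nor is the set of arrays normalized jointly, and the log base was taken from RMA's usual output. GEO's platform annotation gave 1 symbol for 19460 rows. The 33.3% of rows with the lowest mean were left out, and the brightest row stood for each gene, leaving 14147 genes. limma 3.58.1 (lmFit and eBayes, R 4.3.3) was run two-sided over all genes with Benjamini-Hochberg adjustment and a threshold of 0.05. The number in the titles was taken as the experiment, since the series text places the duplicates in independent studies. That equal numbers mark a shared experiment is an inference. The block fit keeps the experiment and leaves 1 residual degree of freedom with 6.6 prior ones. The fit without it leaves 2 and 4.32. Deviations of same-numbered arrays correlated at 0.335. The p-values measure only the spread between these arrays, and their number limits the precision. The members, gene lists and tests were chosen with earlier results of these data known.

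Genes are named if they passed either fit, had the 5 brightest or 3 dimmest rows, had opposite changes of at least 0.3, or had the largest change among those of a role that did not pass (up to 2). Of other lists up to 4 risen genes are named. DDX1, DDX6, DDX17, DDX21, DDX49, DDX51, DHX15, DHX16, DHX33, DHX37, DHX38, DHX57, the cell type markers and RIGI were named after their values were seen. Figures were drawn with matplotlib 3.10.9.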

Additional observations from a re-analysis of the deposited data

How the results depend on the processing

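The main fit called 6 DDX genes and 10.1% of all genes higher. The DDX count was 1 with no replicate block (3.20% of all genes) and 3 after quantile normalization (6.34%). It stayed within 1.5 times under the other scalings, filters, row rules, moderation and thresholds tried with all 4 arrays. The count of 0 DHX genes called higher was 3 with no filter on dim rows (8.29% of all genes) and 1 under cyclic loess (8.81%). It was 1 with trend and robust moderation (9.85%) and 6 at an adjusted p under 0.10 (14.3%). The median DHX change of 0.40 was 0.31 under quantile normalization and 0.35 under cyclic loess. The cause of these shifts was not tested. The block fit has no residual when an array is left out, so arrays were left out in the fit without the block. There the count of DDX genes called was 0 without each of the 4 arrays in turn, when 2.23% of all genes were called higher without anti-miR-191 replicate 1 and 0% without any of the other arrays, the DHX median between 0.34 and 0.41 and the DDX median between 0.23 and 0.52. At an unadjusted p under 0.05, limma had between 3 and 13 DDX genes higher in those settings, or 11.1% to 48.1% of the family against 8.4% to 15.9% of all genes. The count of DDX and of DHX genes called lower was 0 under every one of these settings. No named gene that passed changed sign under any setting.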

Other observations

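The E-box CACGTG, bound by MYC and related factors and the same on both strands, was also searched in the promoter windows of the helicase genes. It was present in 1 of the 6 risen genes (DDX5), and in 8 of the 33 other tested helicases with a window (24.2%), against 12.1% of all tested genes with a window. Among DHX genes with a window, 5 of 14 held it (35.7%), namely DHX32, DHX34, DHX35, DHX37 and DHX40. Of these 5, DHX40 had a change of -0.05 and the others had changes from 0.39 to 0.52. The DHX genes with a window and without the E-box had changes from 0.08 to 0.51. Over all tested genes with a window, CACGTG was present in 12.6% of risen, 13.7% of fallen and 12% of other genes. A link between the E-box and the changes was not tested.

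Among the 16 DHX genes the change went with the mean level of the row (Pearson's r = 0.53), whereas over 27 DDX genes (r = -0.02) and over all genes tested (r = 0.02) it did not. The points share the same 4 arrays, so this is a description.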
